A study of Mus musculus with 4 samples.

Results

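The CC chemokine ligands of adipose inflammation were examined in gonadal white adipose tissue (gWAT) as 10 genes chosen by symbol: *Ccl2*, *Ccl3*, *Ccl4*, *Ccl5*, *Ccl6*, *Ccl7*, *Ccl8*, *Ccl9*, *Ccl11* and *Ccl12*. All 10 had a row among the 17335 genes of the deposited table, each under 1 symbol. The tissue came from female mice on a high-fat diet (HFD) for 18 weeks, and RNA of 4 mice per genotype was pooled into 1 sequencing library. The fl/fl library is from littermates whose floxed *Dnmt1* is intact, and the AD1KO library from mice in which adiponectin-Cre, a transgene active in adipocytes, deletes *Dnmt1*. Both genotypes carry the floxed alleles and ate the same diet, and the age of the mice is not given in the sources used here. Leukocytes, stromal and vascular cells of the AD1KO fat pad keep *Dnmt1* and contribute to the same RNA.

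CC chemokines are small secreted proteins with a pair of adjacent cysteines near the N-terminus. They bind G protein-coupled receptors on leukocytes and guide those cells along gradients held on cell surfaces and matrix. In obese fat, adipocytes, stromal cells and macrophages secrete *Ccl2*, which recruits monocytes that carry the receptor *Ccr2* and become adipose tissue macrophages. *Ccl3*, *Ccl4* and *Ccl5* attract macrophages and T cells, and *Ccl11*, an eotaxin, attracts eosinophils through *Ccr3*.

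Levels are given in FPKM, fragments scaled by transcript length and by library size, which allows levels of different genes to be compared. Each change is a log2 ratio, AD1KO to fl/fl, taken after 0.01 was added to both FPKM values. A gene is called lower at a log2 ratio of -0.5 or below and higher at 0.5 or above, the study's own threshold, and it was applied to the 15839 genes that reached 0.1 FPKM in either library (called tested genes). The table lists no reads, so reads were estimated from the steps between low FPKM values, which put the depth at 17690000 reads in fl/fl against 17450000 in AD1KO. The intervals that follow each ratio are exact Clopper-Pearson intervals at 95% on these reads. They hold counting error alone. With 1 pool of RNA per genotype there is no spread between mice to measure and no test. *Dnmt1*, the targeted gene, had 6.99 FPKM in fl/fl against 3.33 in AD1KO, a log2 ratio of -1.07 (interval -1.27 to -0.87). Fewer cells of a type and less RNA per cell cannot be told apart in whole tissue.

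All 10 ligands had a lower level in AD1KO than in fl/fl, as did 53.8% of tested genes, and 9 of the 10 were called lower. Of all tested genes, 19.1% were called lower at the same threshold and 14.3% higher, and 0 of the 10 ligands were called higher. The ratios ran from -2.40 for *Ccl5* to -0.34 for *Ccl11*, with a median of -1.63 against -0.04 for all tested genes. At a stricter log2 ratio of -1, 7 ligands were lower, where the share of all tested genes was 8.95%. *Ccl9*, at -1.0006, only just reached it, and under 5 of 6 other settings it did not, which left 6 ligands. The whole counting interval lay below -0.5 for 9 ligands, as it did for 8.28% of tested genes. *Ccl11* was the exception in both counts, although its whole interval lay below 0, as did that of 29.0% of tested genes.

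**Figure D1:**
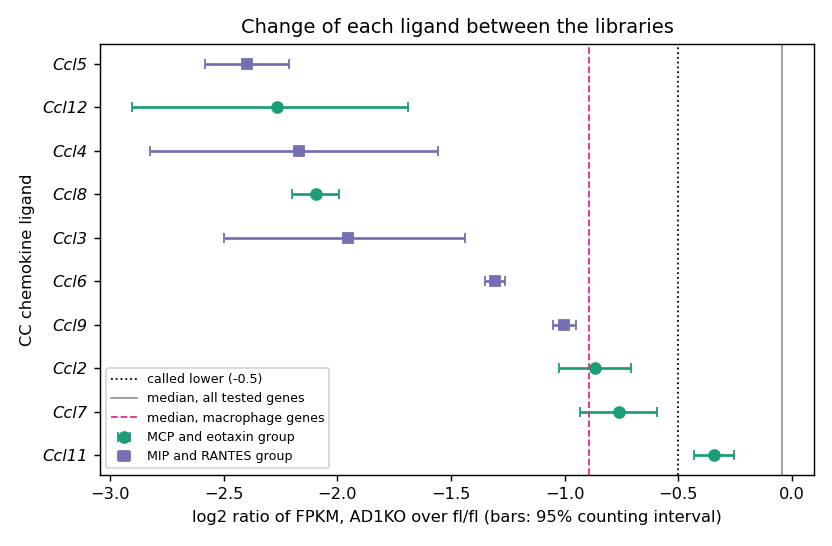
Log2 ratio of FPKM in AD1KO over fl/fl for each CC chemokine ligand, with bars for the 95% counting interval, colored by the chromosomal group of the gene. The intervals of *Ccl5*, *Ccl12*, *Ccl4*, *Ccl8* and *Ccl3* end below -1.26, the upper end for *Ccl6*, and *Ccl11* alone lies to the right of the dotted line at -0.5.

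The ligands fell to different extents. *Ccl5*, *Ccl12*, *Ccl4*, *Ccl8* and *Ccl3* had ratios from -2.40 to -1.95, and the other 5 had ratios from -1.31 to -0.34. Among the 45 pairs of ligands, the intervals overlapped in 11, so that the remaining pairs differed by more than counting error. The share of such pairs among all tested genes was not computed, and genes with many reads have narrow intervals. The count therefore cannot be read as a trait particular to the ligands. Whether the ligands would differ across mice was not tested. Level and ratio were weakly related across the 10 genes (Spearman's rho 0.14, a description over genes of the same 2 libraries).

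The monocyte chemoattractant ligands comprise *Ccl2*, *Ccl7*, *Ccl8* and *Ccl12*. *Ccl2* (gene 20296, also called *Mcp1*) was at 77.3 FPKM in fl/fl against 42.4 in AD1KO, so 54.9% of its level was left, from about 943 and 511 reads. Its ratio of -0.87 had an interval from -1.02 to -0.71. *Ccl7* (gene 20306), which like *Ccl2* acts on *Ccr2*, was at 54.8 FPKM in fl/fl against 32.3 in AD1KO, a ratio of -0.76 (interval -0.93 to -0.59). The intervals of *Ccl2* and *Ccl7* overlapped, and the level of *Ccl2* was 1.41 times that of *Ccl7* in fl/fl and 1.31 times in AD1KO.

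*Ccl8* and *Ccl12* fell much further than these neighbors. *Ccl8* (gene 20307), which in the mouse signals through *Ccr8*, dropped from 557 FPKM in fl/fl to 130 in AD1KO, or from about 3948 to 911 reads. Its ratio was -2.10 with an interval from -2.20 to -1.99, which left 23.4% of the fl/fl level. *Ccl12* (gene 20293), a mouse ligand of *Ccr2*, was much scarcer and dropped from 19.0 to 3.94 FPKM, or from about 142 to 29 reads. Its ratio of -2.27 had a wider interval, from -2.90 to -1.69, which holds that of *Ccl8* and lies below that of *Ccl2*. The monocyte attractants thus made a pair with a moderate fall and a pair with a large one. Only 388 of the 15839 tested genes had a ratio as low as that of *Ccl8* or lower, against 1737 for *Ccl2*.

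*Ccl11* (gene 20292) stood apart from the rest. It was at 143 FPKM in fl/fl against 113 in AD1KO, from about 2428 and 1890 reads, so 78.9% of its level was left. Its ratio of -0.34 did not reach the threshold, and its interval, -0.43 to -0.25, did not overlap that of any other ligand. In fl/fl, *Ccl8* was 3.88 times as abundant as *Ccl11* and *Ccl5* 1.32 times. In AD1KO, *Ccl8* was 1.15 times as abundant and *Ccl5* 0.32 times, and *Ccl11* had become the third most abundant of the 10 ligands.

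*Ccl5*, *Ccl3* and *Ccl4* fell together. *Ccl5* (gene 20304, RANTES), made by activated T cells, NK cells and macrophages, dropped from 189 FPKM in fl/fl to 36.0 in AD1KO, or from about 1552 to 291 reads. It had the lowest ratio of the 10 ligands, -2.40 (interval -2.58 to -2.21), with 19.0% of its fl/fl level left. *Ccl3* (gene 20302), a macrophage inflammatory protein, was at 12.6 FPKM in fl/fl against 3.24 in AD1KO, from about 153 reads and 39 reads. *Ccl4* (gene 20303), its close relative, had 12.5 FPKM, or about 123 reads, against 2.77 FPKM, or about 27 reads.

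*Ccl3* and *Ccl4* were the scarcest of the ligands in both libraries and stayed near equal in level. The level of *Ccl3* was 1.01 times that of *Ccl4* in fl/fl and 1.17 times in AD1KO. Their ratios of -1.95 (interval -2.50 to -1.44) and -2.17 (interval -2.83 to -1.56) overlapped each other and that of *Ccl5*.

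*Ccl6* and *Ccl9*, mouse ligands of *Ccr1* that macrophages and other myeloid cells express, were abundant and fell less. *Ccl6* (gene 20305) was the highest ligand in both libraries, at 645 FPKM in fl/fl against 261 in AD1KO, from about 14982 and 5980 reads. It was among the 157 most abundant of the tested genes in fl/fl and among the 355 most abundant in AD1KO. Its ratio was -1.31 (interval -1.35 to -1.26). *Ccl9* (gene 20308) was at 192 and 96.2 FPKM, a ratio of -1.0 (interval -1.05 to -0.95). The deep coverage of these genes made their intervals narrow, and they did not overlap each other. *Ccl6* was 3.35 times as abundant as *Ccl9* in fl/fl and 2.71 times in AD1KO.

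**Figure D2:**
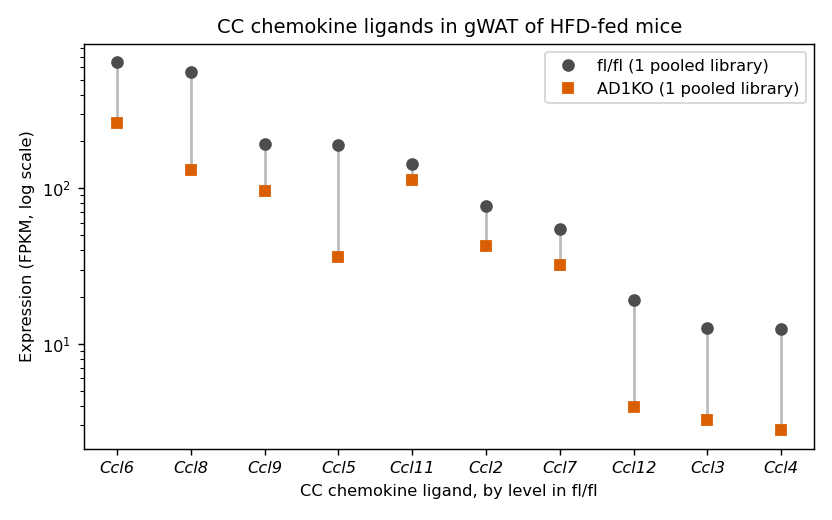
FPKM of each CC chemokine ligand on a log scale in the fl/fl library (circles) and the AD1KO library (squares), ordered by level in fl/fl. Levels run from 645 FPKM for *Ccl6* to 12.5 for *Ccl4* in fl/fl, every square lies below its circle, and the shortest line is that of *Ccl11*.

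Together, the 10 ligands summed to 1903 FPKM in fl/fl against 721 in AD1KO, a log2 ratio of -1.40, with 37.9% of the fl/fl sum left. Their reads made up 0.196% of the estimated reads summed over all genes in fl/fl and 0.0853% in AD1KO. These sums, 17833899 and 17561590 reads, lie slightly above the estimated depths. *Ccl6* and *Ccl8* held 63.1% of the summed FPKM in fl/fl and made up most of the difference between the sums, *Ccl8* with 36.1% of it and *Ccl6* with 32.5%. The make-up of the ligand pool shifted with the unequal falls. The share of *Ccl8* went from 29.3% in fl/fl to 18.1% in AD1KO and that of *Ccl5* from 9.96% to 4.99%, whereas the share of *Ccl11* went from 7.54% to 15.7%. The share of *Ccl6* was 33.9% and 36.2%. The levels spanned a 51.6-fold range in fl/fl and a 94.2-fold range in AD1KO.

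**Figure D3:**
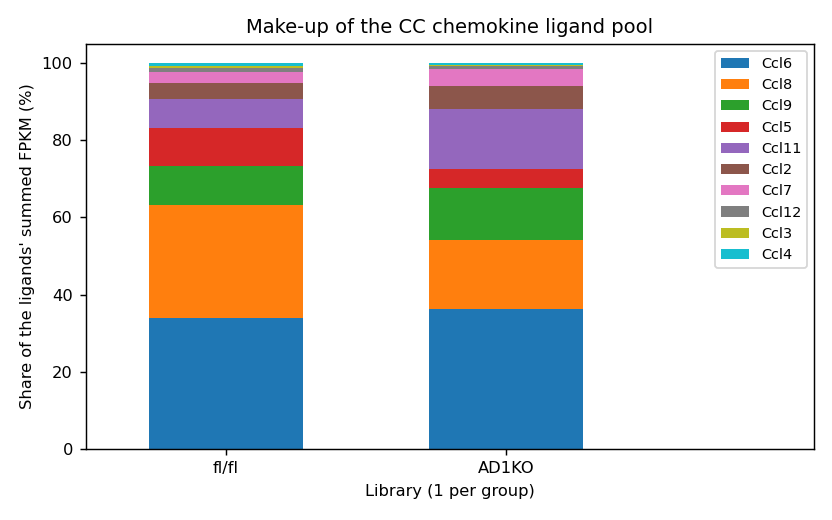
Share of each ligand in the summed FPKM of the 10 CC chemokine ligands, in percent, with 1 bar per library. From fl/fl to AD1KO the *Ccl8* band narrows from 29.3% to 18.1% and the *Ccl11* band widens from 7.54% to 15.7%.

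The ligand genes lie in 2 groups on chromosome 11 of mm9 in the GENCODE annotation. The MCP and eotaxin group spans 81.2 kb (chr11:81849073-81930301) with *Ccl2*, *Ccl7*, *Ccl11*, *Ccl12* and *Ccl8* in this order, all on the plus strand. The MIP and RANTES group spans 139 kb (chr11:83339280-83478185) with *Ccl5*, *Ccl9*, *Ccl6* and *Ccl3* on the minus strand and *Ccl4* on the plus strand, and starts 1409 kb after the end of the former. *Ccl6* and *Ccl9* have 4 exons each in their main transcript and the other members 3.

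Both groups held strong and weak falls. The ratio of the summed FPKM was -1.40 for each group, and the MIP and RANTES group held 55.3% of the ligand pool in both libraries. The medians of the ratios differed, at -0.87 for the MCP and eotaxin group and -1.95 for the MIP and RANTES group, each over 5 genes. Within the former, the 3 genes on the *Ccl2* side had ratios from -0.87 to -0.34 and the pair on the *Ccl8* side had ratios of -2.27 and -2.10, with the longest gap of the group, 38.9 kb, between *Ccl11* and *Ccl12*. Within the latter, the outer genes *Ccl5*, *Ccl3* and *Ccl4* fell by more than the inner *Ccl9* and *Ccl6*.

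**Figure D4:**
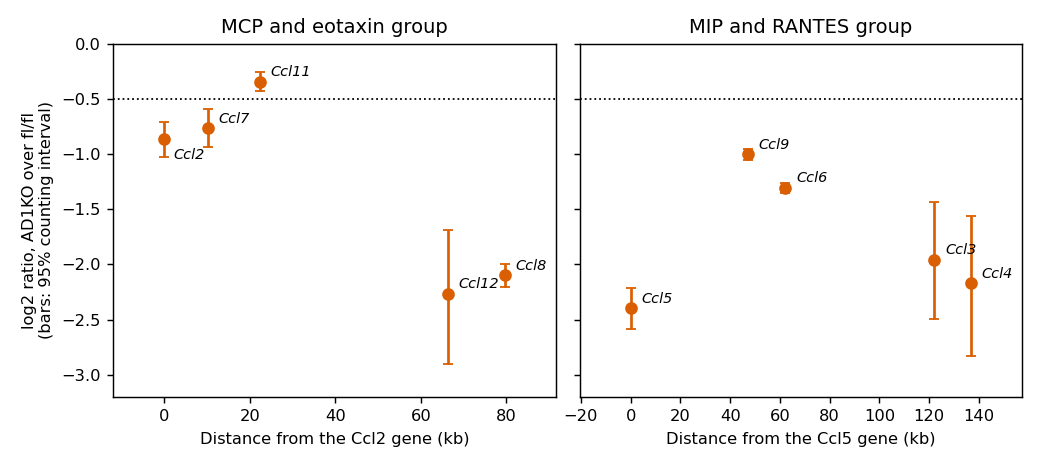
Log2 ratio of each ligand, with its 95% counting interval, against the distance in kb of its gene from *Ccl2* (left) or *Ccl5* (right) on mm9, with the call threshold of -0.5 dotted. On the left, *Ccl2*, *Ccl7* and *Ccl11* lie between -0.87 and -0.34 and *Ccl12* and *Ccl8* near -2.27 and -2.10, and on the right *Ccl9* and *Ccl6* lie above *Ccl5*, *Ccl3* and *Ccl4*.

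Neighbors with alike coding sequences did not always have alike ratios. Between coding sequences, identity over aligned columns was highest for *Ccl3* with *Ccl4*, at 67.0%, and both had large falls. *Ccl7* and *Ccl11* were 66.3% identical and had ratios of -0.76 and -0.34, with intervals that did not overlap. *Ccl7* and *Ccl12* were 63.5% identical, and their ratios were -0.76 and -2.27. *Ccl9* and *Ccl6* were 64.8% identical, as were *Ccl12* and *Ccl8*. The median identity was 54.5% over the 20 pairs within a group and 48.1% over the 25 pairs between groups. None of the 31-base words of 9 ligand transcripts occurred in the protein-coding transcripts of another gene, and for *Ccl9* 3.19% of them did. A predicted gene, *Gm17268*, overlaps *Ccl2* on the opposite strand and a noncoding gene, *E230016K23Rik*, overlaps *Ccl6* likewise. No source used here states that reads were counted by strand, so reads of these partners could not be told apart.

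The sequence before the start was available for *Ccl12*, *Ccl8*, *Ccl9*, *Ccl6* and *Ccl3* in RefSeq (build GRCm38.p6), and *Ccl2*, *Ccl4*, *Ccl5*, *Ccl7* and *Ccl11* were not matched. The 250 bases before the start are printed for *Ccl12* and *Ccl8*, the neighbors that fell most in their group, and for *Ccl9* and *Ccl6*, the neighbors that fell least in theirs. Capitals mark matches to any of the motifs searched. *Ccl12* lies at chr11:82101595-82101844 on the plus strand, *Ccl8* at chr11:82114935-82115184 on the plus strand, *Ccl9* at chr11:83578637-83578886 on the minus strand and *Ccl6* at chr11:83593088-83593337 on the minus strand.
Ccl12: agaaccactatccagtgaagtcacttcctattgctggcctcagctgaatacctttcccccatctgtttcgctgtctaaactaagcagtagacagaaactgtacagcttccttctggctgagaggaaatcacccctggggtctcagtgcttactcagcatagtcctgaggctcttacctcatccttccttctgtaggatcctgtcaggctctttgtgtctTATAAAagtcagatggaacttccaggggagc
Ccl8: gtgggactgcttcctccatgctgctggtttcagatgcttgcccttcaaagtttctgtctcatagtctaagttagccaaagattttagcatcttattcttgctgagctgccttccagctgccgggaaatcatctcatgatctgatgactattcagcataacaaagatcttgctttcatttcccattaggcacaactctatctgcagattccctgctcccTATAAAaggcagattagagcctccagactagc
Ccl9: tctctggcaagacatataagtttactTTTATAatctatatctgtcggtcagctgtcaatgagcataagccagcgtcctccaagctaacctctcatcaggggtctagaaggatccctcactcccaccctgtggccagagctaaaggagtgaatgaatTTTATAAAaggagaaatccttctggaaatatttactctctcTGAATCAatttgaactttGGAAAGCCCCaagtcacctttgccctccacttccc
Ccl6: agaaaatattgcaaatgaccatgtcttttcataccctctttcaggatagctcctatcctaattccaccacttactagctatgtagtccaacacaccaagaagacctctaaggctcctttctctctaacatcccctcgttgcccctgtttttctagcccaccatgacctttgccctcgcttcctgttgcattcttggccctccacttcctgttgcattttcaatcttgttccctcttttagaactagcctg

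The motifs were searched on both strands. TATAAA, the TATA box, occurred in *Ccl12* at position -31, in *Ccl8* at position -32 and in *Ccl9*, where the match nearest to the start began at position -92, and 12.4% of the 32851 promoters of the table hold it in the same window. GGGNNNNNCC, a core of NF-κB sites, occurred in *Ccl9* alone of the 5, at position -35, against 45.8% of all promoters. TGANTCA, the AP-1 site, also occurred in *Ccl9* alone, at position -53, against 6.75%. TTCNNNGAA, the STAT site, occurred in none of the 5, against 7.02%. No match overlapped one of another motif, though 2 of the TATA matches of *Ccl9*, at -94 and -92, overlap each other. Aligned over the 250 bases, *Ccl12* and *Ccl8* were 54.9% identical, the highest of the pairs, and *Ccl9* and *Ccl6* 45.7%.

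Receptors of these ligands were lower as well. Of the 5 genes listed, 4 passed the filter and all 4 were called lower, with a median ratio of -1.07. *Ccr2*, the receptor of *Ccl2*, *Ccl7* and *Ccl12* and the most abundant of the list, was at 16.2 FPKM in fl/fl against 9.88 in AD1KO, a ratio of -0.71 (interval -0.86 to -0.56). Its interval overlapped those of *Ccl2* and *Ccl7* and lay above that of *Ccl12*.

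*Ccr1*, on which *Ccl3*, *Ccl5*, *Ccl6* and *Ccl9* act, was at 3.72 FPKM in fl/fl against 2.12 in AD1KO, a ratio of -0.81 (interval -1.19 to -0.46). *Ccr3*, the eotaxin receptor, had 0.80 FPKM (about 45 reads) against 0.31 (about 17 reads), a ratio of -1.34 (interval -2.28 to -0.55). *Ccr8* had about 3 reads in fl/fl against 1 in AD1KO, and its interval, -7.28 to 2.07, left a difference undetectable at this depth. *Ccr1l1*, a relative of *Ccr1*, was at 0.04 FPKM in both libraries, about 1 read each. With a filter at 1 FPKM, which leaves out *Ccr3* and *Ccr8*, the median of the receptors was -0.76. With 1 FPKM added to both values it was -0.53.

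The atypical receptors, which bind chemokines without G protein signaling, did not all go one way. *Ackr2*, a scavenger of inflammatory CC chemokines, was at 2.45 FPKM in fl/fl against 1.33 in AD1KO, a ratio of -0.88 (interval -1.33 to -0.44). *Ackr1*, which carries chemokines across endothelium, was at 6.51 and 4.43 FPKM (ratio -0.55, interval -0.97 to -0.13). *Ccrl2* was at 5.65 and 3.63 FPKM (ratio -0.64, interval -0.95 to -0.32). *Ackr4*, which scavenges *Ccl19*, *Ccl21* and *Ccl25* and not the ligands above, rose from 1.02 to 2.35 FPKM, a ratio of 1.20 (interval 0.63 to 1.80).

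The other CC ligands of the table were mostly scarce and showed no common direction. Of 11 found, 10 passed the filter, 4 were called lower and 2 higher, with a median of 0.09. *Ccl22*, a ligand of *Ccr4*, fell from 5.28 to 2.01 FPKM (ratio -1.39, interval -1.84 to -0.95). *Ccl24*, which like *Ccl11* is an eotaxin, was at 6.22 FPKM in fl/fl against 8.75 in AD1KO (ratio 0.49, interval 0.16 to 0.83), just short of the threshold. *Ccl17* was at 0.67 and 0.94 FPKM, *Ccl25* at 1.42 and 0.95, *Ccl28* at 0.19 and 0.13 and *Ccl1* at 0.15 in both, and each of these intervals included 0, although *Ccl25* and *Ccl28* count among those called lower.

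*Ccl19* was at 16.3 FPKM in fl/fl against 6.91 in AD1KO (ratio -1.23), and *Ccl21a* at 0.13 and 37.7 FPKM (ratio 8.07). *Ccl27a* was at 5.86 and 6.62 FPKM and *Ccl27b* at 0.11 and 0.18, or about 1 and 2 reads. These genes have near-identical copies that can share reads, so their values are uncertain. *Ccl21a* and *Ccl27b* are the 2 called higher, and the interval of *Ccl27b*, -3.24 to 6.90, included 0. *Ccl20* was at 0.08 FPKM in fl/fl, about 1 read, and is listed at 0 in AD1KO. A count of 0 leaves room for an expected count of up to about 3 reads.

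Genes that induce or transcribe CC ligands were lower in part. Of 22 tested, 13 were called lower and 1 higher, with a median of -0.52. The most abundant of those lower were *Irf1*, an interferon-induced transcription factor, from 74.7 FPKM in fl/fl to 20.1 in AD1KO (ratio -1.90), *Nfkbia*, the inhibitor of NF-κB and one of its targets (49.4 to 34.3 FPKM, ratio -0.53), and *Irf5*, a transcription factor of inflammatory macrophages (57.6 to 24.2 FPKM, ratio -1.25). The 1 called higher was *Il13*, listed at 0 in fl/fl and with about 7 reads in AD1KO. Among the genes of signaling behind the receptors, 12 of 17 were called lower and 0 higher, with a median of -1.01. They included *Rac2*, a GTPase of leukocyte migration (61.0 to 27.7 FPKM, ratio -1.14), *Arrb2*, an arrestin (47.8 to 28.0 FPKM, ratio -0.77), and the kinase *Lyn* (37.4 to 18.5 FPKM, ratio -1.02).

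Of 7 genes whose products cleave or hold CC chemokines outside the cell, 2 were called lower and 2 higher, with a median of -0.47. *Mmp12*, a macrophage elastase, fell from 165 to 61.0 FPKM (ratio -1.44), and *Sdc1*, a syndecan, from 16.8 to 9.87 FPKM (ratio -0.76). *Mmp9*, a gelatinase, rose from 1.03 to 2.43 FPKM (ratio 1.23). *Dpp4*, the peptidase that trims *Ccl5* and *Ccl11*, was at 7.23 and 10.3 FPKM, a ratio of 0.50 that just reached the threshold, with an interval from 0.36 to 0.65.

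Genes that mark the leukocytes of fat were lower beside the ligands. Of 12 macrophage genes, 10 were called lower and 0 higher, with a median of -0.89 and single ratios between -2.03 and 0.30. Their summed level was 3800 FPKM in fl/fl against 1877 in AD1KO, led by *Lyz2* and *Cd68*. *Ccl5*, *Ccl12*, *Ccl4* and *Ccl8* had ratios below all 12 macrophage genes, *Ccl3* below 11, *Ccl6* below 10, *Ccl9* below 7, *Ccl2* below 6, *Ccl7* below 4 and *Ccl11* below 1. This order is a description of the libraries and uses the ratios alone. The interval of the lowest macrophage gene, -2.18 to -1.88, overlapped those of *Ccl8*, *Ccl12*, *Ccl4* and *Ccl3*, and that of *Ccl5* lay below it.

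The T cell, NK, mast cell and dendritic cell gene lists had lower medians than the macrophage list, with no test of the difference. The monocyte list was lower by little (-0.91 against -0.89), and the B cell list was not lower. All 8 T cell genes were called lower, with a median of -1.64, ratios from -1.89 to -0.71 and sums of 124 and 52.4 FPKM, led by *Thy1* and *Cd3g*. *Thy1*, at 49.4 and 30.3 FPKM, was a large part of these sums. It had the ratio of -0.71, and the next highest ratio of the list was -1.50. The 8 genes of NK and cytotoxic cells were all called lower too, with a median of -2.05, ratios from -2.91 to -1.57 and sums of 57.0 and 13.8 FPKM, led by *Nkg7* and *Gzma*. The ratio of *Ccl5* lay within that range, as did those of *Ccl12*, *Ccl4*, *Ccl8* and *Ccl3*. All of these ratios lay below the range of the T cell genes. The interval of the lowest T cell gene, -2.29 to -1.50, overlapped that of each of these ligands. Whether the ratio of any ligand follows from the number of such cells was not tested. All 7 mast cell genes were called lower, with a median of -1.37 and sums of 378 and 139 FPKM, led by *Mcpt4* and *Tpsb2*. For monocytes, 5 of 6 genes were lower (median -0.91, sums 155 and 86.0 FPKM, led by *Plac8* and *F13a1*), for dendritic cells 5 of 7 with 1 higher (median -1.12, sums 30.6 and 16.8 FPKM, led by *Batf3* and *Ccr7*) and for B cells 4 of 6 (median -0.69, sums 96.5 and 62.6 FPKM, led by *Cd79a* and *Cd79b*).

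Granulocyte genes were less uniform. Of 5 tested neutrophil genes, 4 were lower and 1 higher (median -0.79), while their sum was 45.3 FPKM in fl/fl against 64.0 in AD1KO, led by *S100a8*, the 1 called higher, and *S100a9*. The whole interval lay below 0 for only 2 of the 4 called lower. *Mpo* is listed at 0 in fl/fl. Eosinophil genes, 1 lower and 1 higher of 5, had a median of 0.01 and sums of 72.8 and 80.3 FPKM, led by *Ear2* and *Ear1*. *Ear2* alone, which the paper groups with thermogenic and beige adipocyte markers, was at 67.4 and 76.1 FPKM. Each of the others had about 31 reads or fewer per library, so these sums are mostly those of 1 gene. The 1 called lower was *Prg2*, a granule protein gene, at 2.27 and 1.03 FPKM (ratio -1.13, interval -2.21 to -0.15), and the 1 called higher was *Il5ra*, with about 3 and 9 reads and an interval from -0.40 to 4.13. Both were named after their values were seen. The eotaxin receptor *Ccr3*, as given above, had a ratio of -1.34. No gene of the macrophage, T cell, NK, mast cell, B cell, monocyte or dendritic lists was at 0 in either library.

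Adipocyte and mesothelial genes were higher, and most stromal and endothelial genes lay between the thresholds. Of 9 adipocyte genes, 8 were called higher and 0 lower, with a median of 0.58 and ratios from 0.46 to 1.50, led by *Fabp4* and *Adipoq*, and their sum was 16986 FPKM in fl/fl against 26348 in AD1KO. Stromal fibroblast genes had a median of 0.18, with 1 of 7 lower and sums of 1932 and 2206 FPKM, led by *Dcn* and *Dpt*. Endothelial genes had a median of 0.30, with 1 of 6 higher and sums of 76.4 and 90.9 FPKM, led by *Pecam1* and *Cdh5*. All 5 mesothelial genes were higher, with a median of 0.76 and sums of 74.3 and 140 FPKM, led by *Upk3b* and *Krt19*. *Esr1*, the estrogen receptor the study follows, was at 4.82 FPKM in fl/fl against 8.44 in AD1KO (ratio 0.81, interval 0.65 to 0.97). The part of cell make-up in the ligand ratios was not tested.

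**Figure D5:**
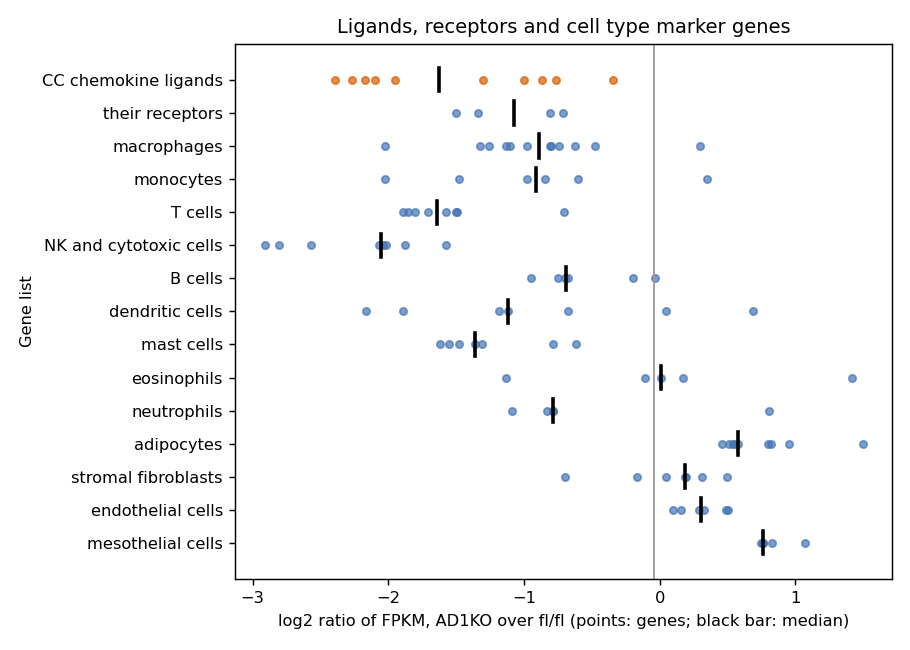
Log2 ratio of FPKM in AD1KO over fl/fl for the genes of each list that passed the filter (points) with the list's median (black bar) and the median of all tested genes (grey line). The ligands have a median of -1.63, between those of the NK and cytotoxic genes at -2.05 and the macrophage genes at -0.89, whereas the median of the adipocyte genes is 0.58.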

How the data were processed

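RNA-Seq was done on gWAT from females of each genotype on HFD, 1 library from 4 pooled animals per genotype. The RRBS libraries of the series, 2 in number, were not analysed here. Per the paper's methods, clean reads were aligned to mm9. The aligner and the quantifier are not given in the sources used here. The authors deposited FPKM per gene, with 0 written as 0.01, which was set back to 0. They also deposited a fold change, P-value and FDR per gene, which were not used.

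Reads were estimated as FPKM times transcript length less 116 bases times depth, at the values that made low FPKM whole reads. Of 750 low values in fl/fl, 86.4% were within 0.2 reads of a whole number, and of 754 in AD1KO 85.8%. The median tested gene had 572 reads over both libraries. Genes were matched by symbol, and the pseudocount was 0.01 FPKM. The members and gene lists were chosen with earlier results of these data known. Named in full were the ligands, CC receptors and other CC ligands, and elsewhere the 3 most abundant genes called in each direction or the 2 most abundant of a cell type list. Some listed genes are not reported here and were left out of the list counts. Steps were tested on simulated data. Positions are from GENCODE on mm9. Coding sequences were aligned globally. Biopython 1.88, pandas 2.3.3, SciPy 1.17.1, Matplotlib 3.10.9 and NumPy 2.4.6 were run in Python 3.11.15. Alternatives were other scalings, pseudocounts, filters, thresholds and estimated reads.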

Additional observations from a re-analysis of the deposited data

How the results depend on the processing

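No paired analysis was possible because each genotype has only 1 pool. Of the 60 ligand ratios under 6 other settings, 60 stayed under 0 and 56 moved by less than the counting error. The largest move was 0.33, and 9 of 10 ligands were called lower under each scaling, pseudocount and read estimate. The median of the ligands, -1.63, was -1.58 with scaling by trimmed mean of M-values, -1.54 by upper quartile, -1.59 by median of ratios and -1.49 with a pseudocount of 1 FPKM. The ratio of the summed level, -1.40, was -1.35, -1.31 and -1.36 under the same scalings. The median of the receptors, -1.07, was -0.79 and -0.53 with pseudocounts of 0.1 and 1 FPKM, -0.81 with no filter and -0.76 with a filter at 1 FPKM. The pseudocounts are near the levels of *Ccr8* and *Ccr3*, and the filter at 1 FPKM leaves both out. Upper quartile scaling called 16.5% of tested genes lower and 17.7% higher, in place of 19.1% and 14.3%.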

Other observations

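Genes beside the ligand groups with a row in the table, matched through RefSeq synonyms, did not share one direction. *Asic2*, an ion channel gene before *Ccl2*, was at 0.89 FPKM in fl/fl against 1.80 in AD1KO, from about 46 and 91 reads, and *Ccl1*, after *Ccl8*, had about 1 read in each library. *Heatr9*, before *Ccl5*, had about 9 reads in fl/fl, and AD1KO lists it at 0. *Wfdc17*, a secreted protein gene of activated macrophages that lies after *Ccl4*, was at 117.1 FPKM in fl/fl against 91.6 in AD1KO, a log2 ratio of -0.35 that did not reach the threshold. These values come from 1 library per genotype, with no replicate check.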
